A study of Mus musculus with 10 samples.

Results

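The plantaris muscle of mice was compared after 10 d of overload and without overload, in 4 pools of RNA out of the 10 of the series. The members of the comparison were chosen by their sample titles alone: 2 pools were labelled as 10 d controls, which had synergist ablation and no PDGF inhibitor, and 2 pools were labelled as controls without overload, which had neither synergist ablation nor the inhibitor. Synergist ablation removes calf muscles that share the work of the plantaris, so that the plantaris carries their load. All mice were C57BL/6 males, no age is given in the sources used here, and each pool mixed equal amounts of RNA from 4 muscles. The other pools were 2 after 3 d of overload, which serve here as a second reference, and 2 at each time in which signalling by platelet-derived growth factor (PDGF) was inhibited, which entered only the estimate of the spread. Whether separate animals made up each pool, and whether the controls had sham surgery, is unknown from the labels. The p-values therefore measure only how far the pools of a group spread, and some of that spread may be technical.

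An overloaded muscle grows by enlarging its fibres. Satellite cells, the stem cells of muscle, divide, differentiate and fuse with the fibres, fibroblasts lay down and remodel the matrix between fibres, and macrophages enter the tissue after the surgery. Growing fibres re-express myosins and troponins that are otherwise typical of embryonic muscle, and long overload shifts a fast muscle towards slower contractile proteins.

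Values are RMA log2 expression values of an Affymetrix Mouse Gene 2.1 ST array, which are relative brightnesses, so that levels of different genes are not compared. Each of 22180 genes was tested with limma, and a gene was called higher or lower at an adjusted p under 0.05. A value after ± is the standard error of a log2 change. Of the 22180 genes, 1138 were called (5.13%), 865 higher (3.9%) and 273 lower (1.23%) after 10 d of overload, and at an unadjusted p under 0.05 there were 4497. The rise reached 2-fold in 559 genes and 4-fold in 126, whereas the fall reached 2-fold in 90 and 4-fold in 9. The median change over all genes was -0.04.

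The calls depended on single arrays. Without pool 1 of no overload 259 genes were called, without pool 2 of no overload 525, without pool 2 of 10 d overload 324, and without pool 1 of 10 d overload 1232. In each of the 10 fits that left out 1 array, 164 of the higher and 13 of the lower genes were called. A called gene named below was among these, here termed stable calls, unless an omission that lost its call is given with the change found without that array. The median over genes was 0.17 log2 units higher on the 10 d arrays than on the arrays without overload. Setting all arrays to a common median lowered every change by this amount and moved the split from 76.0% higher to 43.1% higher, with 678 genes higher and 896 lower.

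The label of the tissue was checked on 14 genes of fast skeletal muscle fibres. Their log2 values lay between 10.1 and 12.3 in the 6 pools without the inhibitor and their sum over the list was 163 and 163 without overload and 164 and 163 after 10 d. limma called none of the 14, and 1 was higher at an unadjusted p under 0.05. Myh4, the fastest adult myosin heavy chain, read 12.07 and 12.01 without overload and 11.88 and 11.91 after 10 d. RNA of whole muscle was measured, so more cells of a type and more RNA per cell cannot be told apart in any result below.

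The largest rise of all genes was in a fibre gene. Sarcolipin (Sln), a small peptide that inhibits the calcium pump of the sarcoplasmic reticulum, read 2.43 and 3.75 without overload and 8.52 and 8.89 after 10 d. Both overloaded pools stood far above both controls, which themselves lay more than 1 log2 unit apart. The change was 5.62 ± 0.38 (adjusted p = 0.000817), 4.96 without pool 1 and 6.28 without pool 2 of no overload. Of 22 calcium handling genes 3 were called higher and 3 lower, with a median change of 0.06, or -0.11 under the common median. Leaving out any 1 pool of 10 d or of no overload left 1 of them called lower. The cardiac and slow-fibre calcium store protein Casq2 rose from 7.49 and 7.26 to 8.64 and 8.86 (1.37 ± 0.18, adjusted p = 0.00566). Ryr3, a calcium release channel, fell from 3.25 and 3.14 to 1.86 and 1.89 (-1.32 ± 0.17, adjusted p = 0.00523).

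Both myosins of developing muscle rose. Of 13 myosin heavy chains 3 were called higher and 1 lower (none lower without pool 2 of 10 d, either pool of no overload or either 3 d pool without the inhibitor), and the median change was 0.13, or -0.04 under the common median. Changes in this list ranged from -2.22 to 4.13. Embryonic Myh3 read 4.49 and 4.55 without overload, 6.94 and 7.40 after 3 d and 8.13 and 9.11 after 10 d, with no overlap between any of the groups. Perinatal Myh8 read 2.29 and 2.70 without overload, 4.25 and 5.37 after 3 d and 5.75 and 7.51 after 10 d. The 10 d pools of Myh8 lay further apart than the controls. Against no overload the change was 4.10 ± 0.34 for Myh3 (adjusted p = 0.00151) and 4.13 ± 0.53 for Myh8 (adjusted p = 0.00566). For Myh8 it was 5.02 without pool 1 and 3.25 without pool 2 of 10 d. A second, dimmer probe set of Myh8, with a mean of 2.18 over the arrays, changed by 0.81.

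The adult fast chains Myh1, Myh2 and Myh4 changed by 0.30, 0.13 and -0.14 and were not called. The slow chain Myh7 read 6.23 and 5.56 without overload and 7.08 and 6.37 after 10 d (0.83 ± 0.41, adjusted p = 0.306), and its 10 d pools lay above both controls. After 3 d it read 4.44 and 4.55, below both other groups, and 10 d exceeded 3 d by 2.23 ± 0.41 (adjusted p = 0.0195). That call was lost without pool 1 (2.17) or pool 2 (2.28) of 3 d, or without pool 1 of 10 d (1.87).

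Some light chains and thin filament proteins of embryonic and slow muscle rose. Of 16 light chains and myosin binding proteins 3 were called higher, and of 23 thin filament genes 6, with none lower in either list. Without pool 1 or pool 2 of no overload the light chain count was 1 and 1. The thin filament count was 2 without pool 2 of 10 d, 2 without pool 1 and 2 without pool 2 of no overload. Under the common median the median change of the thin filament list turned from 0.11 to -0.06. Myl6b, a light chain of slow and embryonic muscle, rose from 5.29 and 5.37 to 7.53 and 7.26 (2.06 ± 0.19, adjusted p = 0.00186). Slow troponin T (Tnnt1) rose from 5.34 and 5.22 to 7.27 and 7.29, with pools of each group almost equal (2.0 ± 0.15, adjusted p = 0.000993). Tnnt1 was also higher than after 3 d, where it read 5.92 and 5.95 (difference 1.35 ± 0.15, adjusted p = 0.00366).

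Cardiac alpha-actin (Actc1), the actin of embryonic muscle, read 6.07 and 6.46 without overload and 8.06 and 9.29 after 10 d. Both 10 d pools were higher, pool 2 by more than 1 log2 unit over pool 1. The change was 2.41 ± 0.35 (adjusted p = 0.00928), 3.03 without pool 1 and 1.80 without pool 2 of 10 d, and its call was lost without pool 1 of no overload (2.22). Slow and cardiac troponin C (Tnnc1) rose by 1.3 ± 0.20 (adjusted p = 0.0115), and its call, though not its direction, was lost without pool 2 of 10 d (1.29) or pool 2 of no overload (1.11).

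Of 28 Z-disc and load sensing genes 5 were called higher and 1 lower. Without pool 2 of 10 d, pool 1 or pool 2 of no overload 1 was called higher and none lower, and without 1 array of the other groups 3 were called higher. Ankrd1, a protein of the titin spring region that is induced by stretch, read 7.54 and 8.43 without overload, 12.18 and 12.18 after 3 d and 10.61 and 10.91 after 10 d. Its 10 d pools lay between the other groups, with no overlap. It was 2.78 ± 0.27 above no overload (adjusted p = 0.00234), which is 6.85-fold.

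Genes of satellite cells and of fibre formation gave a mixed picture. Of 24 such genes 6 were called higher and 1 lower, and the median change was 0.05, or -0.12 under the common median. The higher count was 3 without pool 2 of 10 d and 3 without pool 1 of no overload, and the 1 lower call was lost in all omissions but that of pool 1 of 10 d. Myomaker (Mymk), a membrane protein required for the fusion of muscle cells, read 3.48 and 3.49 without overload and 7.08 and 7.77 after 10 d. The controls were almost equal and both overloaded pools far above them (3.94 ± 0.28, adjusted p = 0.000817). Its partner in fusion, Mymx, read 1.90 and 1.53 without overload and 1.54 and 1.76 after 10 d and was not called (adjusted p = 0.921). These values lie below the lowest array median over genes (2.99), so a change in Mymx could be missed.

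Ncam1, an adhesion molecule of satellite cells and denervated or growing fibres, rose from 7.50 and 7.81 to 9.11 and 9.53 (1.67 ± 0.20, adjusted p = 0.00442). The transcription factor Sox4 rose from 3.11 and 3.34 to 5.25 and 5.83 (2.32 ± 0.21, adjusted p = 0.00169). Myogenin (Myog), the factor that drives terminal differentiation, rose by 1.81 ± 0.27 (adjusted p = 0.00937), and its call, though not its direction, was lost without pool 2 of 10 d (1.51, adjusted p = 0.0611) or pool 1 of no overload (1.61, adjusted p = 0.0641). The satellite cell marker Pax7 read 2.79 and 3.20 without overload and 2.77 and 3.81 after 10 d, with overlapping pools, and Myod1 read 5.20 and 5.55 without overload and 5.07 and 4.86 after 10 d, and neither was called.

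Of 14 genes of the neuromuscular junction 3 were called higher and 1 lower, and none of these was a stable call. The genes called higher were the acetylcholine receptor subunits Chrng, Chrna1 and Chrnb1, with changes of 1.66, 0.76 and 0.69. Musk, the kinase that organises the receptors, was lower by 0.82 (adjusted p = 0.0129), and lost its call without pool 2 of 10 d (-0.84) or pool 1 of no overload (-0.74). Chrnb1 lost its call without pool 2 of 10 d (0.64), pool 1 (0.71) or pool 2 (0.66) of no overload. Chrna1 lost it in each of the 10 omissions, and Chrng in 9, all but that of pool 1 of 10 d. The changes without pool 2 of 10 d were 0.62 and 1.11.

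**Figure D1:**
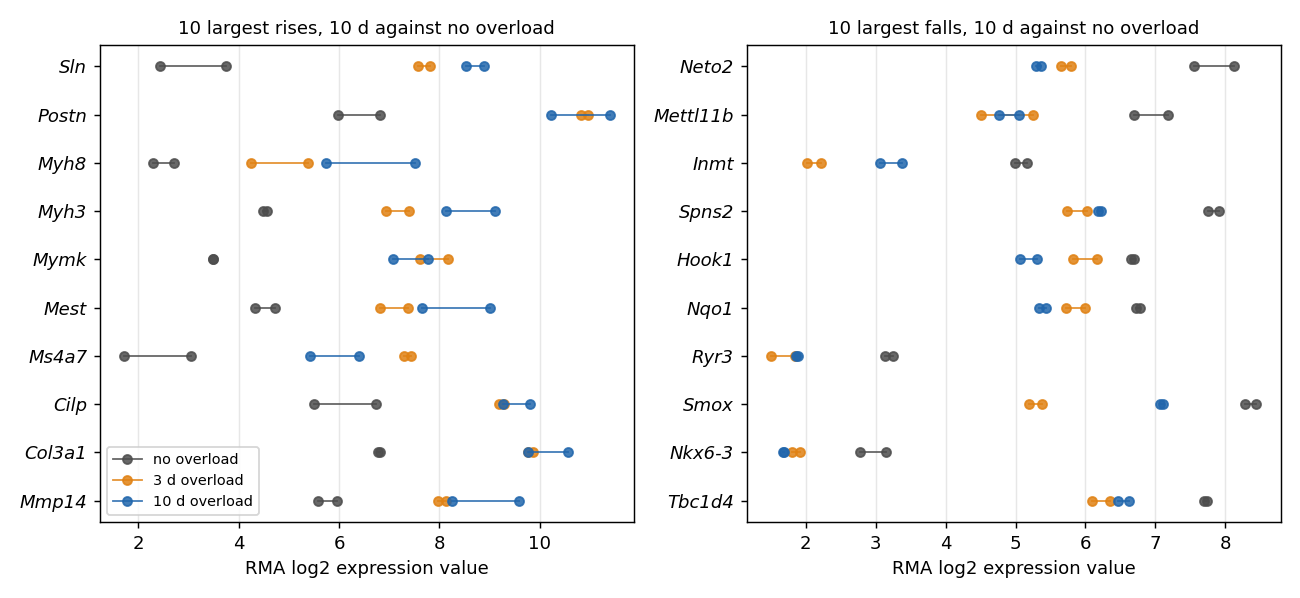
RMA log2 expression values (horizontal axes) of the 10 genes with the largest rises (left) and the 10 with the largest falls (right) among stable calls for 10 d against no overload. Symbols without an assigned name and small RNA, olfactory, vomeronasal, histone cluster and antigen receptor segment genes were left out. Stable calls therefore not shown include Mir493, AF357355 and DQ267102, with changes of 3.94, 3.44 and 3.25. Each dot is 1 pool of 4 muscles, lines join the 2 pools of a group, and in all 20 genes the 10 d pools lie apart from the pools without overload, as in Sln at 8.52 and 8.89 against 2.43 and 3.75.

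Promoters of some of these fibre genes show known muscle motifs. RefSeq promoters, 300 bases each from 250 before to 50 after the start of the gene on build GRCm38.p6, matched 16990 of the tested genes by symbol. The bases before the start are printed for 3 fibre genes that rose and whose promoters held a searched motif: Ankrd1 with the MCAT motif (CATTCC), to which TEAD factors bind, Actc1 with a CArG box, to which serum response factor binds, and Myh8 with a MEF2 motif. Capitals mark the motif, which in Ankrd1 appears 2 times in its reverse complement.
Ankrd1, chr19:36119845-36120094, minus strand: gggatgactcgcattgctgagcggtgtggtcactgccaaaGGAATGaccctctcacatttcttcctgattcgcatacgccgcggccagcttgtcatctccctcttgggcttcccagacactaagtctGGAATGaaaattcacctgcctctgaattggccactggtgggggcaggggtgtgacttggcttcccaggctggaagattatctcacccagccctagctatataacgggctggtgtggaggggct
Actc1, chr2:114052876-114053125, minus strand: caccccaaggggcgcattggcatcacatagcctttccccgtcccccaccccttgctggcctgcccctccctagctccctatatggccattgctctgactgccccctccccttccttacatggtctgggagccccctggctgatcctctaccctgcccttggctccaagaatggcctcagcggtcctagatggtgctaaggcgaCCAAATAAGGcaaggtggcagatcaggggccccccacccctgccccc
Myh8, chr11:67276874-67277123, plus strand: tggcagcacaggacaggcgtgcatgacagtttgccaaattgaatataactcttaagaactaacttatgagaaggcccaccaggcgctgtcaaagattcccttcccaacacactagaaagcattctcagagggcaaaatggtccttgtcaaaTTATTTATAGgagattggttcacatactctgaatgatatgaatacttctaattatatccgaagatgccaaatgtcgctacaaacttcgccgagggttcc

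Both strands were searched, and a match describes letters only. CATTCC was in 13.5% of all 16990 promoters, 13.4% of the 651 matched promoters of genes called higher and 12.8% of the 203 of genes called lower. The E-box CAGCTG was in 15.8% of all, 20.1% of the higher and 15.8% of the lower. TGANTCA, the AP-1 motif, was in 7.39%, 7.53% and 4.93%, the MEF2 motif in 2.77%, 2.30% and 2.96%, and the CArG box in 1.46%, 1.38% and 1.97%. These shares were not tested.

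Many genes of the matrix rose. Of 42 collagen chains 19 were called higher and none lower, 13 of them stable, with a median change of 0.75 against -0.04 over all genes. Collagen III (Col3a1), a chain of loose and newly formed tissue, read 6.78 and 6.82 without overload and 9.77 and 10.57 after 10 d (3.37 ± 0.23, adjusted p = 0.000817). Collagen I (Col1a1), the main fibrillar chain, read 8.02 and 7.96 without overload and 10.39 and 11.25 after 10 d (2.83 ± 0.24, adjusted p = 0.00166). In both genes pool 2 of 10 d was higher than pool 1, and both were far above the controls.

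Col5a2, which sets the width of collagen fibrils, rose by 2.75 ± 0.32 (adjusted p = 0.00413), and by 3.35 without pool 1 and 2.15 without pool 2 of 10 d. Col8a1, a short-chain collagen, rose by 2.98 ± 0.34 (adjusted p = 0.00378), and by 3.57 and 2.39 without these pools. The count of collagens called higher ranged from 13 without pool 1 of no overload to 19 over the omissions. Under the common median 19 were called higher and 1 lower.

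Enzymes that modify and cross-link collagen rose with the chains: 15 of 27 were called higher and none lower, with a median change of 0.88. Loxl1 and Loxl3, lysyl oxidase-like enzymes of cross-linking, rose by 1.87 ± 0.25 (adjusted p = 0.0067) and 1.88 ± 0.25 (adjusted p = 0.0067). Sparc, a collagen-binding protein, rose from 8.31 and 8.23 to 9.65 and 10.00 (1.56 ± 0.16, adjusted p = 0.00279). The count of 15 was 5 without pool 1 and 8 without pool 2 of no overload.

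Among 33 matricellular proteins and large proteoglycans 12 were called higher and none lower, with a median change of 0.88. Periostin (Postn), a matrix protein of tissue under repair, read 5.98 and 6.82 without overload and 10.23 and 11.40 after 10 d (4.41 ± 0.37, adjusted p = 0.00162). Tenascin C (Tnc), typical of remodelled matrix and of the myotendinous junction, read 4.48 and 4.59 without overload, 9.88 and 9.71 after 3 d and 7.06 and 8.27 after 10 d. All 10 d values of Tnc lay above the controls and below the 3 d pools. Its change was 3.13 ± 0.32 (adjusted p = 0.00279), 3.74 without pool 1 and 2.52 without pool 2 of 10 d. Cilp, a matrix protein of cartilage and fibrous tissue, rose by 3.42 ± 0.36 (adjusted p = 0.0029), and by 2.80 without pool 1 and 4.03 without pool 2 of no overload.

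Elastic fibre and microfibril genes were called higher in 9 of 19, with a median change of 0.90 and counts of 3 without pool 1 of no overload and 4 without pool 2 of 10 d. Mfap4, an elastin-binding protein, rose from 4.48 and 4.27 to 6.07 and 7.04 (2.18 ± 0.27, adjusted p = 0.00507). Of 16 small leucine-rich proteoglycans 3 were called higher: lumican (Lum), biglycan (Bgn) and asporin (Aspn). Lumican read 6.29 and 6.50 without overload and 8.01 and 8.73 after 10 d (1.97 ± 0.24, adjusted p = 0.00499). Biglycan rose by 1.59 ± 0.19 (adjusted p = 0.00499). Asporin rose by 1.92 ± 0.32 (adjusted p = 0.0154), and its call was lost without pool 1 (2.0) or pool 2 (1.84) of no overload. Its change was 2.52 without pool 1 and 1.32 without pool 2 of 10 d.

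The basement membrane, the sheet that wraps each fibre and capillary, was called higher in 11 of 18 genes and lower in none, with a median change of 0.73. Its median was 0.69 in pool 1 and 0.79 in pool 2 of 10 d. Col4a1 and Col4a2, the main collagen IV chains, were higher in both 10 d pools than in both controls. Col4a1 read 5.76 and 5.86 without overload and 7.19 and 7.14 after 10 d, and Col4a2 5.28 and 5.07 and then 6.68 and 6.69. They rose by 1.36 ± 0.17 (adjusted p = 0.0056) and 1.51 ± 0.17 (adjusted p = 0.00401). Laminin beta 1 (Lamb1) rose by 1.56 ± 0.16 (adjusted p = 0.0027) and Col15a1 by 1.56 ± 0.14 (adjusted p = 0.00169). The count of 11 was 5 without pool 2 of 10 d, 5 without pool 1 and 7 without pool 2 of no overload.

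Of 39 matrix proteases and inhibitors 14 were called higher and none lower, with a median change of 0.77. The count was 9 without pool 2 of 10 d, 9 without pool 1 and 9 without pool 2 of no overload. Mmp14, the membrane-bound protease that activates the precursor of Mmp2, read 5.58 and 5.97 without overload and 8.25 and 9.58 after 10 d (3.15 ± 0.36, adjusted p = 0.00401), a change of 3.81 without pool 1 and 2.48 without pool 2 of 10 d. Mmp2, a gelatinase, read 7.90 and 7.98 without overload, 8.25 and 7.99 after 3 d and 9.49 and 10.40 after 10 d. The 3 d pools lay next to the controls and only the 10 d pools stood apart. Mmp2 was 2.01 ± 0.26 above no overload (adjusted p = 0.00566) and 1.82 ± 0.26 above 3 d (adjusted p = 0.00811), and the latter call was lost without pool 2 of 3 d (1.69). The inhibitor Timp1 read 2.02 and 3.12 without overload, 7.92 and 7.59 after 3 d and 5.20 and 6.18 after 10 d. It was 3.12 ± 0.39 above no overload (adjusted p = 0.00523) and lay between both groups.

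Markers of fibroblasts moved with these matrix genes. Of 29 such markers 15 were called higher and none lower, with a median change of 0.86. The sum of their log2 values was 142 and 148 without overload and 163 and 181 after 10 d. The part of fibroblast number in the matrix result was not tested. Pi16, a marker of fibroblast progenitors around vessels, read 5.19 and 5.46 without overload, 5.51 and 5.46 after 3 d and 6.65 and 7.06 after 10 d. It rose by 1.53 ± 0.17 over no overload (adjusted p = 0.0037) and by 1.37 ± 0.17 over 3 d (adjusted p = 0.0059). S100a4, a calcium-binding protein of motile fibroblasts and leukocytes, rose by 1.53 ± 0.15 (adjusted p = 0.0027). The count of 15 was 5 without pool 1 and 9 without pool 2 of no overload, and 6 without pool 2 of 10 d.

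Genes of the PDGF system, the target of the inhibitor used in other groups, are the receptors Pdgfra and Pdgfrb and the ligands Pdgfa to Pdgfd. The receptor Pdgfra, which marks fibro-adipogenic cells, read 7.37 and 7.24 without overload and 7.94 and 8.32 after 10 d (0.82 ± 0.16, adjusted p = 0.0269). Both 10 d pools were higher, but the call was lost without pool 2 of 10 d (0.63), pool 1 (0.89) or pool 2 (0.76) of no overload. Pdgfrb and Pdgfd changed by 0.54 and 0.62, with adjusted p of 0.0953 and 0.0718. Pdgfc, Pdgfb and Pdgfa changed by 0.70, 0.31 and -0.20 and were not called.

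Tendon genes were called higher in 7 of 16 and lower in none, with a median change of 1.08, against 0.04 after 3 d. Thrombospondin 4 (Thbs4), a matrix protein of tendon and its junction with muscle, read 8.88 and 9.03 without overload and 10.52 and 11.09 after 10 d (1.85 ± 0.20, adjusted p = 0.00298). Tenomodulin (Tnmd), a membrane protein of mature tendon cells, read 5.89 and 6.00 without overload, 6.12 and 5.77 after 3 d and 8.03 and 9.12 after 10 d. The 3 d pools overlapped the controls, and both 10 d pools were higher than all others. Tnmd was 2.63 ± 0.38 above no overload (adjusted p = 0.00891), a call lost without pool 1 of no overload (2.58, adjusted p = 0.0596). Over 3 d the difference was 2.63 ± 0.38 (adjusted p = 0.00895), lost without pool 1 (2.80) or pool 2 (2.46) of 3 d. The count of 7 was 1 without pool 1 and 3 without pool 2 of no overload, and 4 without pool 2 of 10 d.

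Most macrophage genes stayed above the level without overload, though their median was under that of 3 d. Of 38 macrophage and monocyte genes 24 were called higher and none lower, 9 of them stable, with a median change of 1.59. The changes ranged from -1.40 to 3.53, and 4 of the 38 were negative. At limma's unadjusted p under 0.05, 31 were higher and 1 lower. The median was 1.17 in pool 1 and 1.96 in pool 2 of 10 d, and after 3 d it was 2.61. Against 3 d 19 of the 38 were called lower at 10 d, where the background was 3.38%. The count of 24 was 10 without pool 1 of no overload and 14 without pool 2 of 10 d. The sum of the list's log2 values was 150.4 and 158 without overload and 191 and 217 after 10 d.

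Cd68, a lysosomal protein of macrophages, read 4.97 and 5.28 without overload, 9.60 and 9.64 after 3 d and 6.71 and 7.29 after 10 d. The 10 d pools stood between the other groups without overlap. Cd68 was 1.87 ± 0.20 above no overload (adjusted p = 0.003) and 2.62 ± 0.20 below 3 d (adjusted p = 0.00212). Itgam, the integrin CD11b of myeloid cells, was 2.02 ± 0.18 above no overload (adjusted p = 0.00169) and 1.83 ± 0.18 below 3 d (adjusted p = 0.0025). Ms4a7, a membrane protein of tissue macrophages, read 1.72 and 3.04 without overload and 5.43 and 6.39 after 10 d (3.53 ± 0.44, adjusted p = 0.00507). Its controls lay far apart, and the change was 2.86 without pool 1 and 4.19 without pool 2 of no overload.

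Some genes of complement, antigen presentation and chemokines also rose, and the part of macrophage number in this was not tested. Of 22 complement genes 7 were called higher, among them C3ar1, the receptor for a fragment of C3, by 2.47 ± 0.24 (adjusted p = 0.00234), and factor B (Cfb) by 2.02 ± 0.26 (adjusted p = 0.00566). Of 14 class II and dendritic cell genes 3 were called higher. The class II chains H2-Ab1 and H2-Eb1, which present antigen, rose by 1.94 ± 0.20 (adjusted p = 0.00279) and 2.08 ± 0.25 (adjusted p = 0.00477). Their differences from 3 d were 0.10 ± 0.20 and 0.29 ± 0.25 and were not called. Of 31 chemokines and receptors 6 were called higher, and the monocyte chemokine Ccl8 rose from 2.53 and 2.55 to 4.43 and 5.26 (2.31 ± 0.27, adjusted p = 0.00415). The complement count was 3 without pool 1 of no overload and 4 without pool 2 of 10 d, and the chemokine count 1 and 2.

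Genes of other blood cells were not called. With limma none of 16 neutrophil, 17 lymphocyte and 8 mast cell genes was called at 10 d, and their median changes were -0.11, -0.06 and -0.18. At an unadjusted p under 0.05 the neutrophil list had 0 higher and 1 lower, and the other lists 1 higher and 1 lower each. All lymphocyte values lay between 0.56 and 2.88 in the pools without the inhibitor, below the lowest array median over genes (2.99). A change in genes that read this low could be missed. The sum of the neutrophil list was 33.5 and 30.5 without overload and 29.7 and 28.1 after 10 d, and that of the lymphocyte list 27 and 27.4 and then 25.8 and 28.1. After 3 d the neutrophil median was 1.54. The neutrophil gene S100a8 read 0.98 and 1.19 without overload, 5.45 and 2.05 after 3 d and 0.86 and 0.93 after 10 d. Its 3 d pools were far apart from each other. The 10 d pools lay below the controls, and both groups read near the lower end of the array's range. Of 29 endothelial genes 3 were called higher, or 1 without pool 2 of 10 d or either pool of no overload, and Plvap, a protein of vessel wall openings, rose by 1.18 ± 0.15 (adjusted p = 0.00507).

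Genes of cell division were above the level without overload and below that of 3 d. Of 38 genes of mitosis and cytokinesis 23 were called higher and none lower, with a median change of 1.22 and pool medians of 1.18 and 1.27. Mki67, a marker of dividing cells, read 2.58 and 2.68 without overload, 7.30 and 7.14 after 3 d and 5.62 and 5.66 after 10 d. The pools of each group were nearly equal and the groups did not overlap. Mki67 was 3.02 ± 0.22 above no overload (adjusted p = 0.000817), and 1.58 ± 0.22 below 3 d (adjusted p = 0.00746), the latter a call lost without pool 1 of 3 d (1.5 below).

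The mitotic cyclin Ccnb2 rose by 2.88 ± 0.20 (adjusted p = 0.000817), the spindle protein Prc1 by 2.67 ± 0.19 (adjusted p = 0.000817) and topoisomerase Top2a by 2.09 ± 0.19 (adjusted p = 0.00209). Of the 38 genes 27 were called lower than at 3 d. DNA replication genes were called higher in 7 of 37, with a median change of 0.42, and the helicase subunit Mcm6 rose by 1.52 ± 0.15 (adjusted p = 0.00241). The mitosis count was 11 without pool 2 of 10 d and 11 without pool 1 of no overload, and the replication count was 2 to 4 in each of the 10 omissions. Quantile normalization left 2 of the replication genes called higher.

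**Figure D2:**
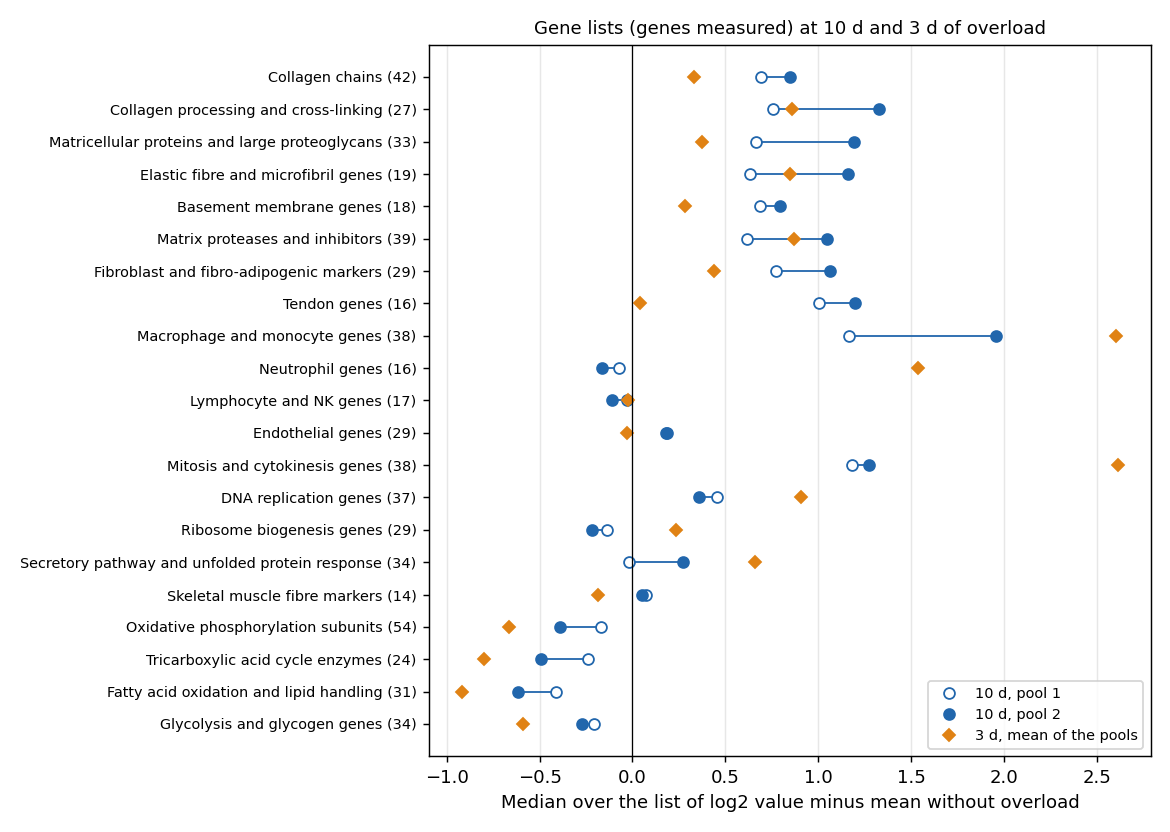
Median over the measured genes of each list (number in brackets) of the log2 value minus the mean without overload (horizontal axis), for pool 1 (open circles) and pool 2 (filled circles) of 10 d and for the mean of the 3 d pools (diamonds). Matrix, fibroblast and macrophage lists lie right of 0 in both 10 d pools and further in pool 2, as in macrophage genes at 1.17 and 1.96, and metabolic lists lie left of 0.

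Of 21 genes of the IGF axis 6 were called higher, with a median change of 0.23, or 0.06 under the common median. The count was 1 without pool 1 and 3 without pool 2 of no overload, and 3 without pool 2 of 10 d. Igf2, a fetal growth factor that is expressed from the paternal copy, read 4.76 and 4.84 without overload, 5.50 and 5.49 after 3 d and 7.31 and 7.83 after 10 d. The groups did not overlap, and most of the rise lay between 3 d and 10 d. Igf2 was 2.77 ± 0.18 above no overload (adjusted p = 0.000817), or 6.8-fold, and 2.07 ± 0.18 above 3 d (adjusted p = 0.0022). Igf1, the main growth factor of adult muscle, read 5.71 and 5.52 without overload, 6.86 and 6.87 after 3 d and 6.71 and 7.62 after 10 d. Igf1 was 1.55 ± 0.25 above no overload (adjusted p = 0.0137), and its call was lost without pool 1 (1.65) or pool 2 (1.46) of no overload.

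In the myostatin and TGF-beta axis 5 of 27 genes were called higher and 1 lower, with a median change of -0.02. The higher count was 1 without pool 2 of 10 d, 2 without pool 1 and 2 without pool 2 of no overload. Myostatin (Mstn), the muscle's own inhibitor of growth, read 9.08 and 8.91 without overload and 7.96 and 7.69 after 10 d. Both 10 d pools were lower (-1.17 ± 0.20, adjusted p = 0.0169), and the call was lost without pool 2 of 10 d (-1.03), pool 1 (-1.08) or pool 2 (-1.25) of no overload. Follistatin (Fst), which binds and blocks myostatin and activins, read 3.84 and 4.59 without overload and 5.24 and 5.71 after 10 d (1.26 ± 0.25, adjusted p = 0.0279), a call lost without pool 2 of 10 d (1.03) or pool 1 of no overload (0.88). Follistatin-like 1 (Fstl1), a secreted glycoprotein, rose from 6.33 and 6.42 to 8.07 and 8.91 (2.12 ± 0.24, adjusted p = 0.00401).

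Imprinted genes, which are expressed from 1 parental copy and are mostly active in fetal growth, were called higher in 8 of 22 and lower in 1, with a median change of 0.45. The count of 8 was 3 without pool 1 and 4 without pool 2 of no overload, and 4 without pool 2 of 10 d, and the 1 lower call was lost without any 1 pool of either group. Mest, a paternally expressed gene of mesoderm, read 4.72 and 4.33 without overload, 6.81 and 7.38 after 3 d and 7.65 and 9.01 after 10 d. Its change was 3.81 ± 0.40 (adjusted p = 0.00282), 4.49 without pool 1 and 3.12 without pool 2 of 10 d. Rian, a noncoding RNA of the imprinted domain between Dlk1 and Dio3, read 3.59 and 4.18 without overload, 6.47 and 6.81 after 3 d and 6.32 and 7.43 after 10 d. The 10 d pools lay on either side of the 3 d pools, with a difference of 0.23 ± 0.39 (adjusted p = 0.813). Its change from no overload was 2.98 ± 0.39 (adjusted p = 0.00566).

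The whole domain of Rian on chromosome 12 was then listed, a choice made after its values were seen. It holds one of the largest clusters of microRNA genes of the mouse, which are cut from long noncoding transcripts of the maternal copy and are known from embryos, placenta and brain. RefSeq places 103 genes between Dlk1 and Dio3, and 43 microRNA genes and 12 others were measured. The array detects the hairpin within the primary transcript and does not separate it from the mature microRNA, and hairpins of 1 transcript are not independent of each other. Of the 43 microRNA genes 13 were called higher and none lower, and 42 had a positive change, with a median of 0.76. Of 435 microRNA genes elsewhere in the genome 4 were called higher and 2 lower, with a median of -0.06. Of the 12 other genes 5 were called higher, namely Rian and the small nucleolar RNA genes AF357425, AF357355, DQ267101 and DQ267102. The call of DQ267101 (2.05) was lost without pool 2 of 10 d or either pool of no overload. Its change ranged from 1.53 to 2.57 over the omissions of 1 array.

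Mature sequences of the microRNAs whose hairpins carried this result are given from RefSeq on build GRCm38.p6, all on the plus strand of chromosome 12, with the seed (bases 2 to 8), which pairs with target transcripts, in capitals. The hairpins of miR-493, miR-323 and miR-487b were the stable calls. Those of miR-379 and miR-1193 are shown because their 5p arms share the seed GGUAGAC.
miR-493-5p, chr12:109580243-109580261: uUGUACAUgguaggcuuuc
miR-493-3p, chr12:109580283-109580305: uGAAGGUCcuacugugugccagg
miR-323-3p, chr12:109712558-109712578: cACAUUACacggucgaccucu
miR-487b-5p, chr12:109727347-109727367: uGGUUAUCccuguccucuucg
miR-379-5p, chr12:109709065-109709085: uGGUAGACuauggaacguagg
miR-1193-5p, chr12:109715716-109715735: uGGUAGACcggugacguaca

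The Mir493 hairpin read 2.07 and 2.04 without overload, 5.10 and 5.66 after 3 d and 5.28 and 6.72 after 10 d. Both times stood far above the controls, and pool 2 of 10 d was the highest. Its change at 10 d was 3.94 ± 0.41 (adjusted p = 0.00279), 4.66 without pool 1 and 3.23 without pool 2 of 10 d. The Mir323 hairpin read 1.54 and 1.27 without overload, 1.92 and 2.35 after 3 d and 3.35 and 4.13 after 10 d, and Mir487b 1.94 and 1.36 without overload, 2.16 and 2.11 after 3 d and 3.70 and 3.70 after 10 d. In both the 10 d pools lay clear of the 3 d pools. Mir323 was 2.34 ± 0.25 above no overload (adjusted p = 0.00322) and 1.61 ± 0.25 above 3 d (adjusted p = 0.0118), and Mir487b 2.05 ± 0.22 (adjusted p = 0.00322) and 1.57 ± 0.22 (adjusted p = 0.00811). Without pool 1 of 3 d both calls over 3 d were lost, at 1.39 and 1.59.

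Mir379, with its shared seed, read 0.73 and 0.35 without overload and 1.60 and 1.37 after 10 d (0.95 ± 0.18, adjusted p = 0.0235), near the lower end of the array's range. Mir1193 read 2.02 and 1.33 without overload and 2.94 and 3.60 after 10 d (1.59 ± 0.30, adjusted p = 0.0231). Mir379 lost its call without pool 1 (0.83) or pool 2 (1.06) of 10 d or pool 2 of no overload (0.76). Mir1193 lost it without pool 2 of 10 d (1.27) or pool 2 of no overload (1.25). The count of 13 was 4 without pool 2 of 10 d, 4 without pool 2 and 7 without pool 1 of no overload, and 22 without pool 1 of 10 d. Under the common median 11 of the 43 were called higher and 36 had a positive change. With the arrays of the compared groups alone 0 of the 43 and 1 of the 12 other genes were called higher. The protein-coding ends of the domain, Dlk1 and Dio3, changed by 0.99 (adjusted p = 0.181) and -0.28 (adjusted p = 0.547) and were not called. Meg3, another long noncoding RNA of the domain, was not called either. It read 2.32 and 1.93 without overload and 2.05 and 2.54 after 10 d, with overlapping pools (0.17 ± 0.20, adjusted p = 0.695).

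**Figure D3:**
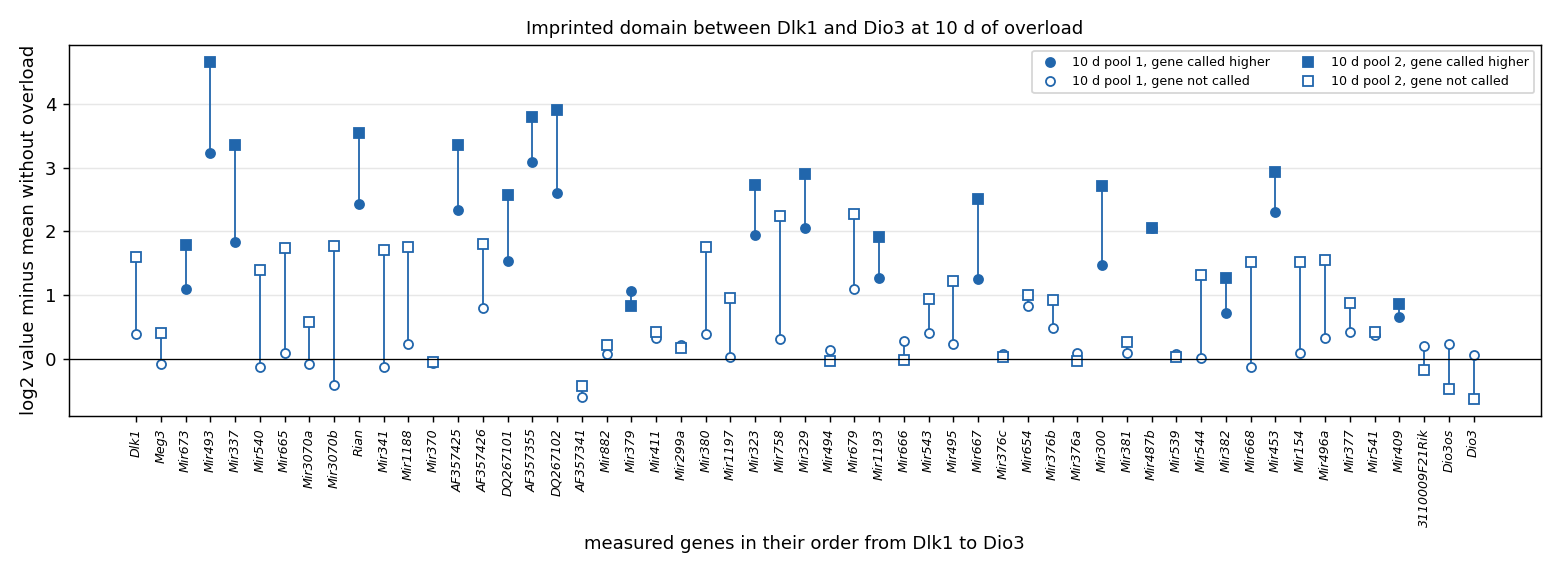
Log2 value minus the mean without overload (vertical axis) of the 55 measured genes between Dlk1 and Dio3 in their order (horizontal axis), for pool 1 (circles) and pool 2 (squares) of 10 d. Filled symbols are the 18 genes called higher, and pool 2 lies above pool 1 in 16 of them.

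Genes called lower were fewer than those called higher on the deposited scale, though not under the common median (896 lower and 678 higher). Among stable calls of genes with an assigned name, the largest fall was that of Neto2, an auxiliary subunit of kainate receptors. It went from 8.13 and 7.55 to 5.29 and 5.37, with 10 d pools nearly equal (-2.51 ± 0.20, adjusted p = 0.00151). Mettl11b, an N-terminal methyltransferase, fell from 7.18 and 6.70 to 4.76 and 5.05 (-2.03 ± 0.26, adjusted p = 0.00527). Spns2, which exports sphingosine 1-phosphate, fell from 7.91 and 7.76 to 6.18 and 6.22 (-1.63 ± 0.14, adjusted p = 0.00169). After 3 d Neto2 read 5.65 and 5.79, Mettl11b 4.50 and 5.24 and Spns2 6.02 and 5.74, below all their values without overload.

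Tbc1d4, the Rab regulator that holds back the glucose transporter GLUT4 until insulin or contraction acts, fell from 7.70 and 7.74 to 6.62 and 6.46 (-1.18 ± 0.14, adjusted p = 0.00419). Nqo1, a quinone reductase of the NRF2 programme, fell from 6.78 and 6.73 to 5.44 and 5.33 (-1.37 ± 0.17, adjusted p = 0.00499). Hook1, a dynein adaptor, fell by 1.48 ± 0.17 (adjusted p = 0.0038), Nkx6-3, a homeobox factor, by 1.27 ± 0.15 (adjusted p = 0.00455), and Inmt, an N-methyltransferase, by 1.86 ± 0.17 (adjusted p = 0.00189). Inmt read 2.02 and 2.21 after 3 d and 3.07 and 3.38 after 10 d, and the difference between these times was 1.11 ± 0.17 (adjusted p = 0.0104), lost without pool 1 of 3 d (1.01).

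In polyamine metabolism 1 of 15 genes was called higher and 2 lower. Spermine oxidase (Smox), which breaks down spermine, read 8.44 and 8.28 without overload, 5.19 and 5.38 after 3 d and 7.07 and 7.10 after 10 d. The 10 d pools had regained much of the fall at 3 d. Smox was 1.28 ± 0.15 below no overload (adjusted p = 0.00415) and 1.80 ± 0.15 above 3 d (adjusted p = 0.0022).

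Lists of energy metabolism had negative medians, and few of their genes were called. Of 31 genes of fatty acid oxidation and lipid handling 6 were called lower and none higher, with a median change of -0.50, against -0.92 after 3 d. Lipoprotein lipase (Lpl), which frees fatty acids for uptake, read 10.24 and 10.31 without overload and 9.50 and 9.22 after 10 d (-0.92 ± 0.15, adjusted p = 0.0133). Its call was lost without pool 2 of 10 d (-0.78), pool 1 (-0.95) or pool 2 (-0.88) of no overload. A second, dimmer probe set of Lpl, with a mean of 3.95 over the arrays, changed by -0.07. None of the 6 was a stable call, and 0 were called lower without pool 2 of 10 d, 0 without pool 1 and 1 without pool 2 of no overload.

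Of 54 subunits of oxidative phosphorylation 1 was called lower, with a median of -0.27. None of 24 enzymes of the tricarboxylic acid cycle and none of 34 genes of glycolysis and glycogen was called, with medians of -0.37 and -0.23. With limma's unadjusted p under 0.05, 12 of the 24 were lower and none higher, and 11 of the 34 were lower and 2 higher. Under the common median the genes called lower numbered 16 of 31, 6 of 54, 5 of 24 and 4 of 34 in these lists. Of 29 genes of ribosome biogenesis none was called at 10 d, with a median of -0.20, 5 lower and none higher at limma's unadjusted p under 0.05, and 9 were called lower than at 3 d. Gamt, the last enzyme of creatine synthesis, went the other way, from 6.36 and 6.13 to 7.80 and 7.88 (1.60 ± 0.18, adjusted p = 0.00374).

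How the muscle at 10 d differed from that at 3 d was tested directly, since the controls without overload cancel in this contrast. Of 22180 genes 1348 were called (6.08%), 598 higher (2.7%) and 750 lower (3.38%) at 10 d. This comparison shares the 10 d pools with that against no overload, so the changes are given side by side only. The largest differences upward were in genes that stood lowest at 3 d. Ky, a muscle protein whose loss causes kyphoscoliosis in mice, read 8.04 and 8.15 without overload, 4.69 and 5.59 after 3 d and 8.12 and 8.0 after 10 d (2.92 ± 0.31 over 3 d, adjusted p = 0.00328). The water channel Aqp4, typical of fast fibres, read 6.28 and 6.14 without overload, 3.32 and 4.05 after 3 d and 5.93 and 5.71 after 10 d (2.13 ± 0.24, adjusted p = 0.00384). For both, the change from no overload at 10 d was not called, at -0.03 ± 0.31 and -0.39 ± 0.24.

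Klhl33, a kelch-like protein, was 2.81 ± 0.26 higher than at 3 d (adjusted p = 0.0025), the Snail family repressor Snai3 2.75 ± 0.30 (adjusted p = 0.00353), the guanylate-binding protein Gbp10 2.36 ± 0.32 (adjusted p = 0.00704) and the fibrillin-binding Adamtsl4 2.17 ± 0.18 (adjusted p = 0.0022). Klhl33 read 7.96 and 7.99 without overload and 7.20 and 7.07 after 10 d, and Snai3 5.36 and 6.08 and then 5.80 and 5.31. Gbp10 read 8.66 and 9.03 without overload and 7.73 and 7.59 after 10 d, and Adamtsl4 7.21 and 7.29 and then 7.42 and 7.24. The 10 d pools of Snai3 and Adamtsl4 overlapped the controls, and those of Klhl33 and Gbp10 were below them, though not called.

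The largest differences downward were in genes that stood highest at 3 d. Sprr1a, a small proline-rich protein induced by injury, read 0.73 and 0.79 without overload, 7.53 and 7.91 after 3 d and 1.57 and 2.71 after 10 d. It was 5.58 ± 0.33 lower than at 3 d (adjusted p = 0.000948) and 1.38 ± 0.33 above no overload (adjusted p = 0.051), which was not called. The TWEAK receptor Tnfrsf12a read 6.48 and 6.76 without overload, 9.50 and 9.37 after 3 d and 6.79 and 6.39 after 10 d, and was 2.84 ± 0.25 lower than at 3 d (adjusted p = 0.0022). Its 10 d pools lay around the controls. The syntrophin Sntb1 was 2.80 ± 0.20 lower than at 3 d (adjusted p = 0.00212), the cyclin-dependent kinase subunit Cks2 2.73 ± 0.23 (adjusted p = 0.0022) and the chemokine receptor Ccr1 2.70 ± 0.26 (adjusted p = 0.0025). Of these, Cks2 was called higher than without overload (1.21 ± 0.23, adjusted p = 0.0252), which was lost without any 1 pool of 10 d (1.14 and 1.28) or of no overload (1.31 and 1.10).

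**Figure D4:**
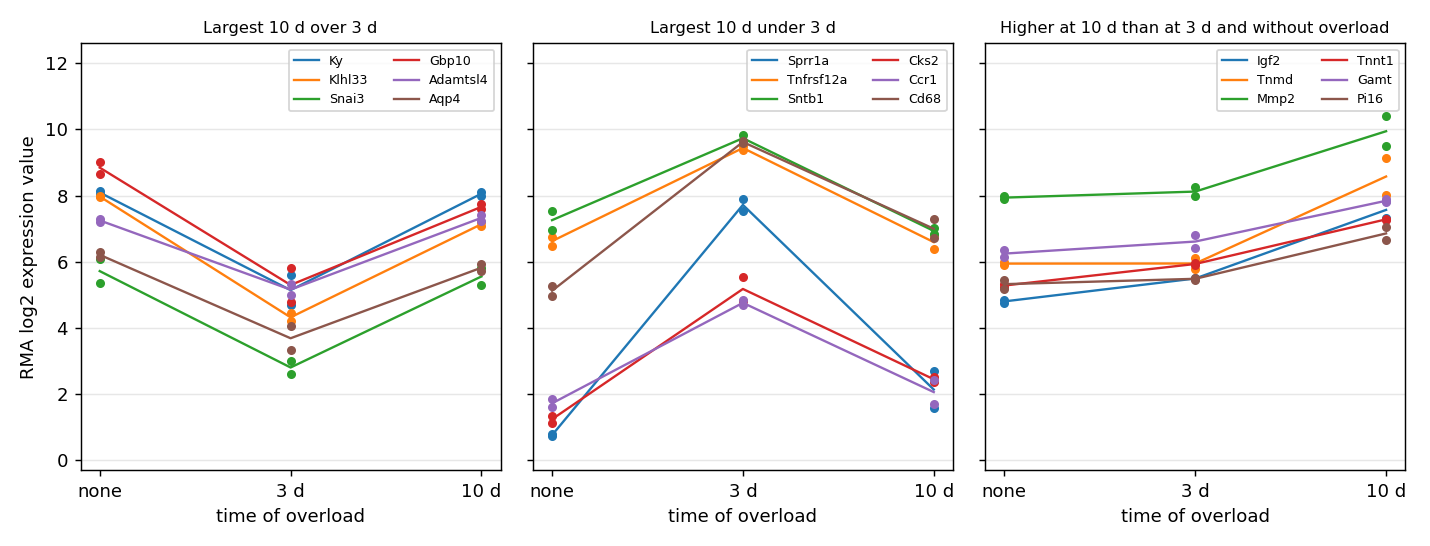
RMA log2 expression values (vertical axis) without overload, after 3 d and after 10 d of overload (horizontal axis), where dots are pools and lines join group means. The left panel shows the 6 genes with the largest excess of 10 d over 3 d, the middle panel the 6 with the largest deficit, such as Sprr1a at 7.53 and 7.91 after 3 d and 1.57 and 2.71 after 10 d, and the right panel 6 genes that were called higher at 10 d than in both other groups.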

How the data were processed

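Expression was measured on Affymetrix Mouse Gene 2.1 ST arrays, 1 array for each of 10 pools in 5 groups of 2. The deposited values are log2 expression values that the authors made with RMA, per the labels, and the submitters' processing notes name oligo and limma without versions. The labels name different labelling kits, so the kit is not known. Of 41345 probe sets 23521 had 1 symbol in the array annotation, 1814 several and 16010 were not listed, and the brightest probe set stood for each gene, 1082 of which had several. In R 4.3.3, limma 3.58.1 (lmFit and eBayes) estimated a mean for each group from all 10 arrays together, and p-values were adjusted by the Benjamini-Hochberg method over 22180 genes. The fit had 5 residual and 3.58 prior degrees of freedom. The number of arrays limits the precision. In 20 simulated data sets, each with 200 changed genes and noise independent between arrays, the fit found 41.3% of the 2-fold changes and 87.3% of the 4-fold ones. More genes were called in the data and the calls depended on single arrays, so these shares may not carry over.

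The comparison, the genes and the lists were chosen with earlier results of these data known. Named genes were the 10 stable calls with the largest rise and fall, the 6 with the largest difference in each direction between 10 d and 3 d, and members of the lists. The rankings by change left out symbols without an assigned name and small RNA, olfactory, vomeronasal, histone cluster and antigen receptor segment genes. Alternatives were other scalings, probe set rules, filters, variance models and the omission of each array. Mature microRNA and promoter sequences came from RefSeq on build GRCm38.p6.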

Additional observations from a re-analysis of the deposited data

Results flagged for a closer look

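Among probe sets that name no gene or several, which entered no comparison above, 56 of 17824 were called higher at 10 d than without overload and 53 lower.

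For 16 of the genes chosen for the largest changes, in addition to the other genes reported above as called between the times, the effects of 10 d and of 3 d of overload, taken against the same controls, differed in the direct test of 10 d minus 3 d. The difference was 1.45 for Myh3, 1.11 for Inmt and 1.80 for Smox, and Hook1 fell by 0.80 between the times. The call of Myh3 was lost in 7 of the 10 omissions of 1 array, with changes from 0.96 without pool 2 to 1.95 without pool 1 of 10 d over all 10. That of Hook1 was lost in 6, with changes from -0.98 without pool 1 to -0.63 without pool 2 of 3 d over all 10, and that of Inmt without pool 1 of 3 d (1.01). The genes that follow, 6 in each direction, were chosen by this same difference, so that their call in this test follows from the choice. The difference between the times was 2.92 for Ky, 2.81 for Klhl33, 2.75 for Snai3, 2.36 for Gbp10, 2.17 for Adamtsl4 and 2.13 for Aqp4. In the other direction it was -5.58 for Sprr1a, -2.84 for Tnfrsf12a, -2.80 for Sntb1, -2.73 for Cks2, -2.70 for Ccr1 and -2.62 for Cd68. Groups of 2 pools are too small for a test of single outlying pools.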

How the results depend on the processing

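No paired analysis was possible because nothing pairs pools across groups. Over the omissions of 1 array the calls for 10 d against no overload ranged from 259 to 1232 in all, from 216 to 986 higher and from 42 to 246 lower. For 10 d against 3 d they ranged from 218 to 1096, from 92 to 470 and from 126 to 636. With the arrays of the compared groups alone they were 31, 29 and 2 against no overload, and 202, 61 and 141 against 3 d. With an intensity trend they were 2097, 1271 and 826, and 2450, 1170 and 1280, and among genes above the median level 1900, 1228 and 672, and 2295, 1141 and 1154. The common median gave 896 lower genes against no overload, and all probe sets tested together gave 509, 395 and 114. No direction of a called value turned among the named genes and the called genes of the domain, or, against 3 d, among the genes chosen for the largest changes. Other genes, and the setting with all probe sets tested together, were not checked for this. The cause of these shifts was not tested, except that settings with fewer arrays hold fewer samples. With 2 pools a group, many changes under 2-fold may be missed: 6.5% of 1.5-fold changes were recovered in simulated data with 200 changed genes, fewer than were called here.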
